A study of Mus musculus with 8 samples.

Results

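The proteasome genes described here are the 36 genes of the deposited table whose symbols begin with Psma, Psmb, Psmc or Psmd followed by a number, without the immunoproteasome subunits Psmb8, Psmb9 and Psmb10. They were chosen by symbol from 17492 genes, with no measured value in the rule. The core particle was represented by 16 genes (Psma1 to Psma8, Psmb1 to Psmb7 and Psmb11), and the regulatory particle by 20 (Psmc1 to Psmc6 and Psmd1 to Psmd14). After a filter on low counts 35 of the 36 were tested, among 11700 genes in all. The gene left out was Psmb11, the core subunit of the thymic proteasome, which had 0 or 1 count in each library.

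The study profiled bone marrow-derived macrophages (BMDMs), which are macrophages grown in culture from bone marrow, of the C57BL/6 mouse strain. There were 4 libraries from BMDMs kept in medium lacking serine and glycine, labelled as serine deficiency, and 4 libraries from BMDMs in normal medium, labelled as untreated. RNA-seq libraries were made from total RNA with oligo-dT beads, which bind polyadenylated RNA. The labels give no time in the medium, no stimulus, no age, and no link from a library to a culture or an animal, so p-values measure only the spread between these libraries, which may be technical.

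The libraries held 17565291 to 18201599 counts each, so that the limit of 3 counts that a count of 0 allows lay between 0.165 and 0.171 normalised counts (CPM, counts scaled to a common library total). No library duplicated another: the chi-square of their counts per degree of freedom was 1.42 to 3.59 over pairs of libraries of one group. Macrophage markers (8 of 8 measured) summed to 18610 to 18881 CPM in serine/glycine-free libraries and 18645 to 19124 CPM in control libraries. In the test between media, 4 of these 8 were higher and 4 lower, against 15.9% and 17.3% of all genes tested. Neutrophil markers (7 of 7 measured, none at 0 in every library) summed to 1.94 to 2.34 CPM in serine/glycine-free libraries. In control libraries they summed to 0.772 to 1.17 CPM, so these sums did not overlap. Only 1 of the 7 passed the filter on low counts, and that gene was higher, so the sums do not show a change across the list. The part of these markers in the results below was not tested. Markers of T cells, B cells, dendritic cells, fibroblasts, red cells and mast cells summed to at most 3.29 CPM in any library. In bulk RNA, fewer cells of a type and less RNA per cell cannot be told apart.

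The proteasome is the barrel-shaped protease that degrades ubiquitin-tagged proteins in the cytosol and nucleus. Its core particle is a stack of rings: the alpha subunits (Psma) form the outer rings and the gate, and the beta subunits (Psmb) form the inner rings, where Psmb5, Psmb6 and Psmb7 carry the active sites. The regulatory particle caps the core; its ATPases (Psmc) unfold substrates and thread them into the barrel, and some of its other subunits (Psmd) bind or remove ubiquitin. In macrophages the proteasome makes peptides for presentation on MHC class I and degrades the inhibitor of NF-kappaB. Subunit genes are known to be induced together by Nfe2l1 and, under oxidative stress, Nfe2l2, which bind antioxidant response elements with small Maf proteins.

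Proteasome transcripts differed little between the 2 media. Of the 35 genes tested, 8 were higher in serine/glycine-free BMDMs, 1 was lower and 26 did not pass an adjusted p of 0.05 (edgeR's quasi-likelihood test, Benjamini-Hochberg adjustment over 11700 genes). That is 25.7% of the genes, against 33.2% of all genes tested, 15.9% of them higher and 17.3% lower. Among the 4234 genes at 50 CPM or more, a level most proteasome genes reach, 48.6% passed. Of these 4234 genes 16.8% were higher and 31.8% lower, against 22.9% higher and 2.86% lower of the proteasome genes. These shares also varied with transcript length, and most proteasome genes lie in the 2 shortest deciles of length. In the shortest decile 25.7% of genes tested were higher and 5.98% lower, and in the next 21.7% and 9.32%. The median size of the log2 change, whatever its sign, was 0.051 over the proteasome genes. It was 0.083 over genes at 50 CPM or more and 0.10 over all genes tested. For all 26 genes that did not pass, the 95% interval of the log2 change lay within ±0.2. The changes that held when any 1 library was left out were those of Psmb6, a catalytic subunit, Psmd8, a regulatory subunit, and Psmd10, an assembly chaperone, which were also the 3 genes that passed in DESeq2.

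**Figure D1:**
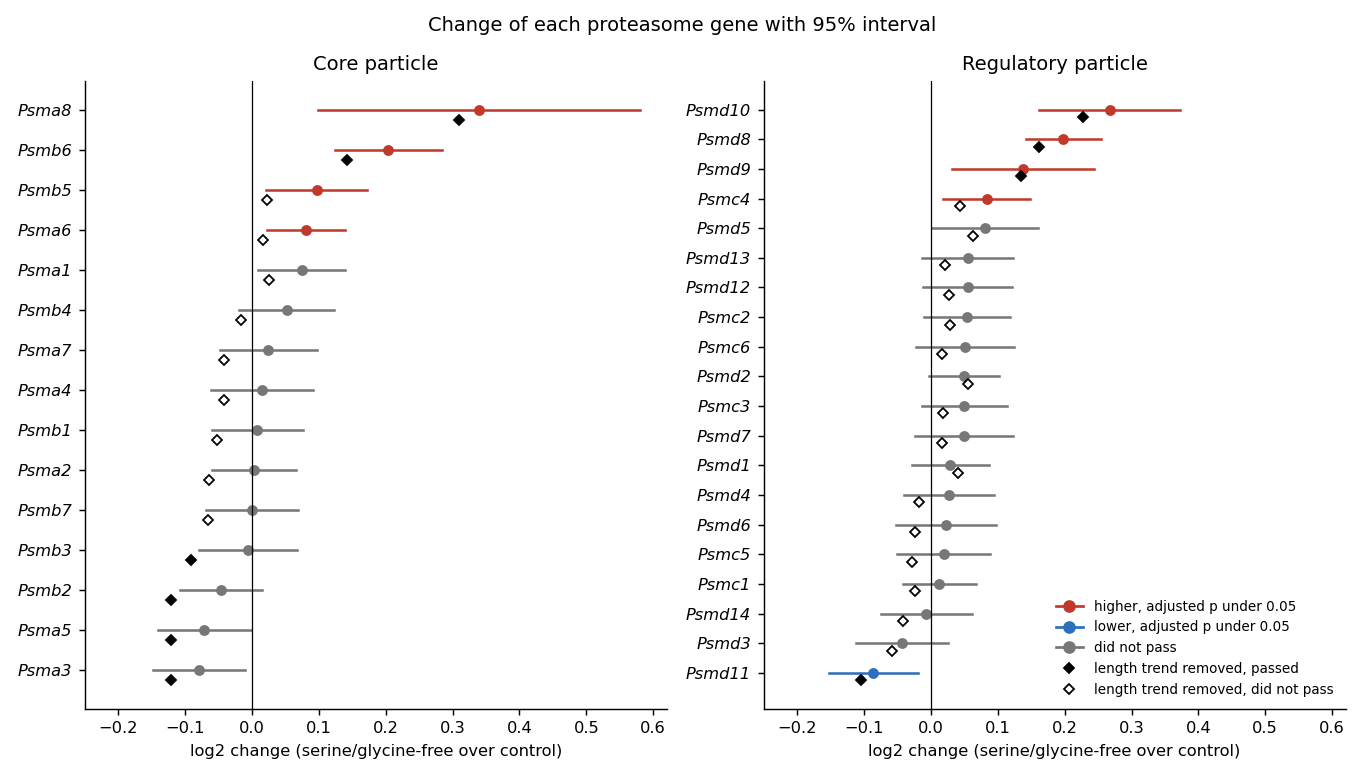
Log2 change of each tested proteasome gene, serine/glycine-free over control, with its 95% interval (horizontal axis), for the core particle (left) and the regulatory particle (right); colours mark the direction of genes that passed an adjusted p of 0.05, and diamonds show the change after a linear trend with transcript length was removed from each library. Most intervals cross 0, and Psma8 (0.34), Psmd10 (0.27), Psmb6 (0.20) and Psmd8 (0.20) lie farthest to the right.

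The promoters of 5 genes whose changes are described below are shown first, to set the sequence beside the expression values. They are those of the catalytic subunit gene Psmb6, the chaperone genes Psmd9 and Psmd10, and the regulatory subunit genes Psmd8 and Psmd11. These genes passed in the same direction with and without the trend on transcript length removed. Psma8 did too, but its promoter is not shown. Each promoter runs 5′ to 3′ on the gene's strand, from 250 bases before to 50 after the RefSeq start, in GRCm38.p6. Capitals mark matches to the motifs named after them, on either strand. They lie at chr11:70525107-70525406 (plus strand) for Psmb6, chr5:123227940-123228239 (plus) for Psmd9, chrX:140956662-140956961 (minus) for Psmd10, chr7:29180624-29180923 (minus) for Psmd8 and chr11:80428365-80428664 (plus) for Psmd11.
Psmb6: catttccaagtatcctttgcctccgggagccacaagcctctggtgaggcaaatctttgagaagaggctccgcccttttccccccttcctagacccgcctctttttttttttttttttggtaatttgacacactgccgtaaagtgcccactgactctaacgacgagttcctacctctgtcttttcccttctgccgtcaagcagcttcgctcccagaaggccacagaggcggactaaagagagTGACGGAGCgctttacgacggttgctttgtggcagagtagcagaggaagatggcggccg
Psmd9: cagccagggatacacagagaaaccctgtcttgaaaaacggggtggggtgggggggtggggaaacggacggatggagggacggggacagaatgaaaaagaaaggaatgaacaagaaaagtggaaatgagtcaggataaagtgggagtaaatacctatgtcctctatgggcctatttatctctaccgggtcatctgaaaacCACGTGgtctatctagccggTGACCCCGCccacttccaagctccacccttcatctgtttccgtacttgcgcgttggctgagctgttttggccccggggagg
Psmd10: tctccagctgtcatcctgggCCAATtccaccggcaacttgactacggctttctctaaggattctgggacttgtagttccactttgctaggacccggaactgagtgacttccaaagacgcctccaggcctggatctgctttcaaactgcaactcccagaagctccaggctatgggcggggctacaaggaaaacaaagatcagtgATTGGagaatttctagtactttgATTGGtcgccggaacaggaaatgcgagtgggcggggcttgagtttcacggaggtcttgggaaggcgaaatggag
Psmd8: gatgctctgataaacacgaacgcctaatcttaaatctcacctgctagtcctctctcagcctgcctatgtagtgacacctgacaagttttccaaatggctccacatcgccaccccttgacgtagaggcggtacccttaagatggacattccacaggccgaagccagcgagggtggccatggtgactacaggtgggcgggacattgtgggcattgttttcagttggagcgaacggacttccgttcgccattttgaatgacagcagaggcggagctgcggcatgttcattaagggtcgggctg
Psmd11: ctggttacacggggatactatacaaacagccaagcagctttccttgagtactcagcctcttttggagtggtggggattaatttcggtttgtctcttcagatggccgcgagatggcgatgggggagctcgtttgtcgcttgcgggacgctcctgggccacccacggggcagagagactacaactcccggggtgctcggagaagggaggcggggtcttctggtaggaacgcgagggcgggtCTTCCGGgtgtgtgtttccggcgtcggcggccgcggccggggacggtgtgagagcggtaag
RefSeq promoters were matched by gene for 29 of the 36 genes (12 core, 17 regulatory), 31 promoters in all. In Psmb6 the capitals are TGACNNNGC, the core of the antioxidant response element, whose leftmost base lies at -9 from the start (negative positions are upstream). In Psmd9 the same motif lies at -31, after an E-box (CACGTG) at -51. In Psmd10 they are CCAAT boxes at -230, -47 and -24, the last pair matching on the strand opposite to the one printed. In Psmd11 they mark an ETS site (CCGGAAG), on the opposite strand, at -11. None of the 6 motifs searched was found in the Psmd8 window. No motif overlapped another in the promoters printed.

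Over all matched genes, TGACNNNGC was found in 5 of 29 (Psmb5, Psmb6, Psmc6, Psmd9 and Psmd12) and in 12.4% of all 32851 mouse promoters of the same length. Of these 5 genes, Psmb5, Psmb6 and Psmd9 were higher in serine/glycine-free BMDMs, and Psmc6 and Psmd12 did not pass, beside 15.9% of all genes tested higher and 8 of the 35 proteasome genes tested. The calls of Psmb5 and Psmd9 were lost in 4 and 6 of the 8 fits that left out 1 library, and that of Psmb5 also after correction for length. CCGGAAG was found in 9 of 17 regulatory genes and 1 of 12 core genes, and in 8.86% of all promoters. CCAAT was found in 7 of 12 core genes and 5 of 17 regulatory genes, and in 37.4% of all promoters. The site of nuclear respiratory factor was found in 6 of 29 genes (4.6% of all promoters), TATAAA in 3 (13.6%) and CACGTG in 2 (7.15%). The counts above are of proteasome genes with a match in any of their promoters. The shares are of single promoters, with no filter on expression, so the units differ. The core genes with CCAAT include Psmb11, which was not tested. A match of letters describes the window and is not a measured binding site.

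Levels were compared between genes in TPM, a unit that divides by transcript length. Psma6, an alpha-ring subunit, was the most abundant core transcript, at 422 ± 9.58 TPM in serine/glycine-free libraries and 409 ± 7.003 TPM in control libraries (SD, n = 4 each, here and below). Psmb2, a beta-ring subunit without an active site, came next at 299 ± 4.98 TPM in serine/glycine-free libraries and 316 ± 3.99 TPM in control libraries, followed by Psmb3 and Psma2, whose libraries overlapped in both media. The other common core transcripts lay below these, down to Psma5 at 148 ± 4.46 TPM in serine/glycine-free libraries and 159.7 ± 4.99 TPM in control libraries. Psma8, the alpha subunit of the testis proteasome and a paralog of Psma7, was far below them at 6.00 ± 0.830 TPM in serine/glycine-free libraries and 4.84 ± 0.292 TPM in control libraries. In the regulatory particle the ranking was led by Psmd8 at 336 ± 5.22 TPM in serine/glycine-free libraries and 299.6 ± 6.23 TPM in control libraries and by the ATPase Psmc1 at 281 ± 3.14 TPM in serine/glycine-free libraries and 285 ± 1.88 TPM in control libraries. The chaperones Psmd5, Psmd10 and Psmd9, which help to build the ATPase ring and leave it before the particle is complete, were the 3 least abundant. From Psmc2 down to Psmd13, each gene's range over the serine/glycine-free libraries overlapped that of the next gene in the order.

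**Figure D2:**
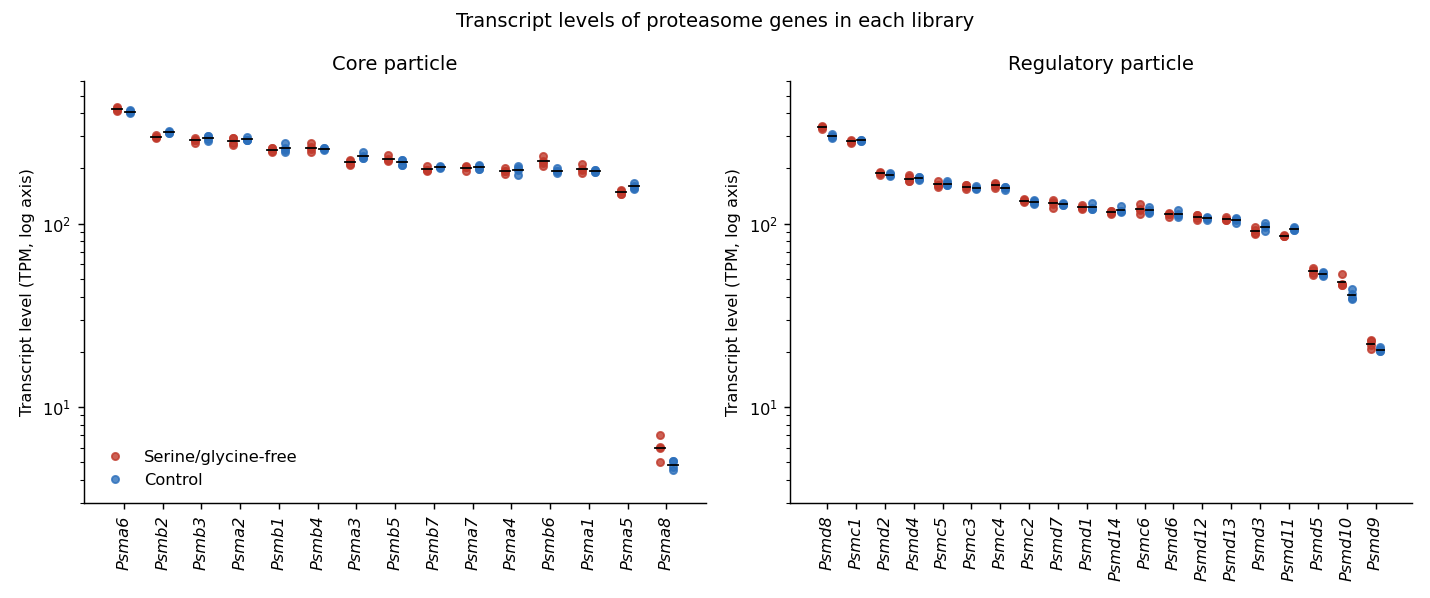
Transcript level (TPM, log axis) of each proteasome gene in each serine/glycine-free (red, left of each pair) and control (blue, right) library, with bars at the group means, for the core particle (left panel) and the regulatory particle (right panel). Psma6 leads the core genes and Psmd8 the regulatory genes, and Psma8 and Psmd9 are lowest; Psmb11, at or near 0, is not drawn.

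In the core particle, 4 of 15 tested genes were higher in serine/glycine-free BMDMs (Psma6, Psma8, Psmb5 and Psmb6), 0 were lower and 11 did not pass, against 15.9% of all genes tested higher and 17.3% lower. In the shortest decile of transcript length, which holds the median core length (850 bases), 25.7% were higher and 5.98% lower. With no lower core gene at an adjusted p of 0.05 in edgeR, 2 (Psma3 and Psma5) were lower at an unadjusted p under 0.05. In DESeq2 0 core genes were lower, against 14.8% of all genes lower (26.2% of all genes called in either direction). In limma-voom 0 core genes were lower, against 17.2% of all genes lower (32.9% of all genes called in either direction). The median log2 change was 0.015 over the core genes, against 0.0074 over all genes tested. Of the 15, 11 had a positive log2 change, against 52.1% of all genes tested. The sign of that median depended on the scaling, at -0.043 with the trend on transcript length removed and 0.065 with the trend on expression level removed.

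Among the active-site subunits, only Psmb6 differed without overlap between the groups. Psmb6 carries the caspase-like activity. It had 107, 101, 109.6 and 120.3 CPM in serine/glycine-free libraries, against 96.6, 93.8, 97.2 and 92.6 CPM in control libraries. Every serine/glycine-free library was above every control library, and the highest was replicate 4. The log2 change was 0.20 (SE 0.0391, adjusted p = 0.000113), from means of 109.5 ± 8.002 CPM in serine/glycine-free libraries and 95.04 ± 2.20 CPM in control libraries (SD, n = 4 each). The gene lies at chr11:70525324-70527858 in GRCm38.p6 (GENCODE annotation).

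Psmb5, the chymotrypsin-like subunit, had 89.2, 90.03, 90.1 and 98.9 CPM in serine/glycine-free libraries, against 90.3, 88.4, 82.6 and 82.9 CPM in control libraries. The groups overlapped, and serine/glycine-free replicate 4 stood above the rest. Its log2 change of 0.10 (SE 0.0373) passed at an adjusted p of 0.0421. Without serine/glycine-free replicate 4 the adjusted p was 0.197, and the call was also lost without serine/glycine-free replicate 3 or without control replicate 3 or 4. The miRNA gene Mir686, on the same strand, covers 12.1% of the exonic bases of Psmb5. Psmb7, the trypsin-like subunit, had 89.4, 88.4, 95.5 and 93.4 CPM in serine/glycine-free libraries, against 93.7, 90.4, 89.97 and 92.5 CPM in control libraries. These groups overlapped and the log2 change was 0.00035 (95% interval -0.068 to 0.069, adjusted p = 0.996). Nek6, on the opposite strand, shares 11.8% of the exonic bases of Psmb7. Among the 3 catalytic genes the log2 change was largest for Psmb6 and closest to 0 for Psmb7; the genes were not tested against each other.

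Of the alpha subunits, Psma6 and Psma8 were higher in serine/glycine-free BMDMs. Psma6 had 207, 192, 199.7 and 209 CPM in serine/glycine-free libraries, against 191, 194, 187 and 192 CPM in control libraries. Replicate 2 of the serine/glycine-free libraries lay within the control range and the other 3 above it. The log2 change was 0.081 (SE 0.0289, adjusted p = 0.0265), but not when serine/glycine-free replicate 1 or 4 or control replicate 1 or 3 was left out (adjusted p up to 0.0903). Psma8 had 5.21, 4.16, 6.01 and 5.26 CPM in serine/glycine-free libraries, against 3.86, 3.91, 4.26 and 4.27 CPM in control libraries. Its groups overlapped at the low end, and its log2 change of 0.34 (SE 0.119, adjusted p = 0.0245) was lost without serine/glycine-free replicate 3 or control replicate 1 or 2 (adjusted p up to 0.131). Its value is uncertain because reads of a paralog can be assigned to a gene at this level; all its deposited counts were whole numbers.

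The remaining core genes did not pass. Psma1 had a log2 change of 0.074 (95% interval 0.0096 to 0.14), with serine/glycine-free libraries at 122 to 132 CPM and control libraries at 115 to 120.4 CPM, which did not overlap; it passed in 3 other settings, without serine/glycine-free replicate 4 (adjusted p = 0.0345), with library size alone (0.0448) and with the level trend removed (0.00152). Psma3, at -0.079 (95% interval -0.15 to -0.010), passed as lower without serine/glycine-free replicate 3 or 4 or control replicate 3. It also passed as lower without a filter on low counts (adjusted p = 0.0211). Psma5 was at -0.071 (95% interval -0.14 to -0.0014). Psmb2 was at -0.046, and its serine/glycine-free libraries all lay below its control libraries. Psma2, Psma4, Psma7, Psmb1, Psmb3 and Psmb4 had log2 changes between -0.0056 and 0.052. Over all core genes 3 of 15 had groups that did not overlap (Psma1 and Psmb6 higher, Psmb2 lower), against 30.6% of all genes tested.

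**Figure D3:**
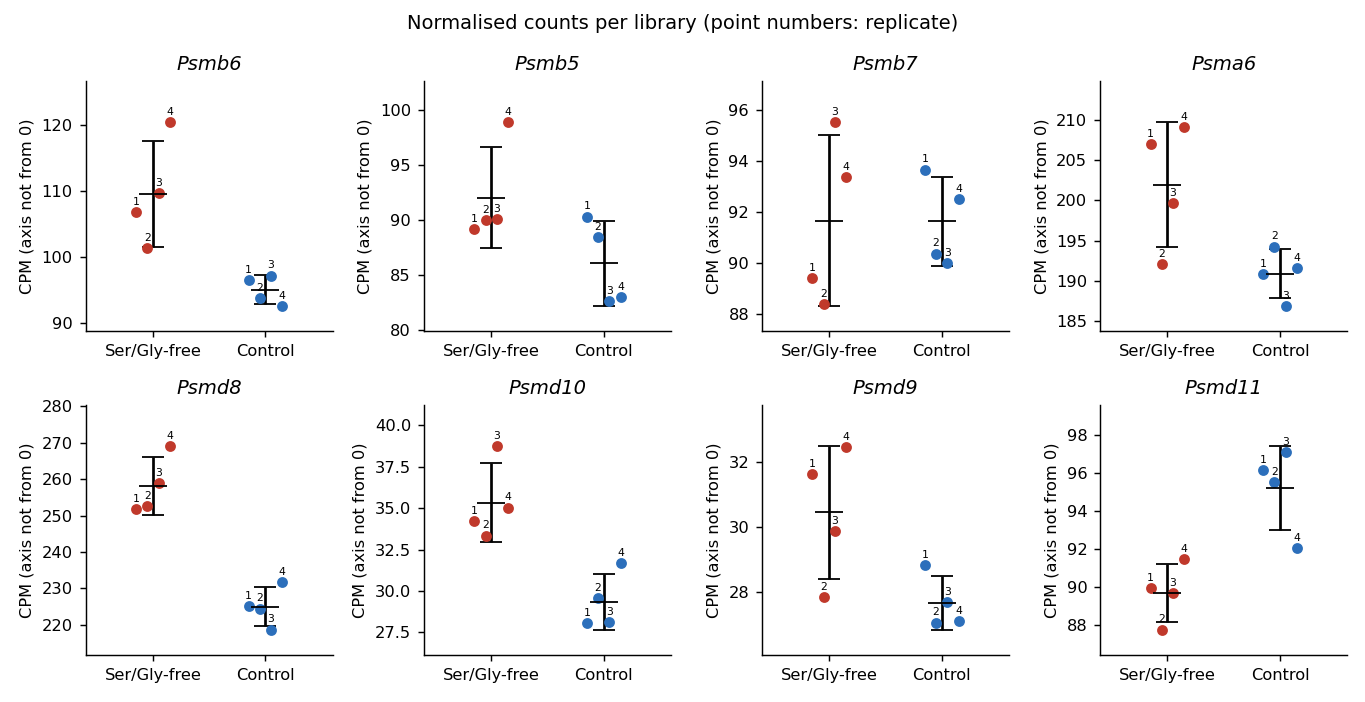
Normalised counts (CPM, axes not starting at 0) of 8 proteasome genes in each library, serine/glycine-free left and control right; points carry the replicate number, and bars show the mean and SD over 4 libraries. The groups are apart for Psmb6, Psmd8, Psmd10 and Psmd11 and overlap for Psmb5, Psmb7, Psma6 and Psmd9.

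In the regulatory particle, 4 of 20 genes were higher in serine/glycine-free BMDMs (Psmc4, Psmd8, Psmd9 and Psmd10), 1 was lower (Psmd11) and 15 did not pass. These calls made up 25% of the regulatory genes, against 33.2% of all genes tested. The median log2 change was 0.050, against 0.0074 over all genes, and 17 of 20 were positive, against 52.1% of all genes tested. The decile of transcript length that holds the median regulatory length (1435 bases) had a median log2 change of 0.057. The median stayed positive with the length trend removed (0.020) and with the level trend removed (0.10). With the level trend removed, 14 regulatory genes were higher and 0 lower, against 18.9% of all genes higher and 13.5% lower in that fit; the median log2 change of all genes at 50 CPM or more was -0.027 before it. Groups did not overlap for 6 of 20 genes (Psmc4, Psmd5, Psmd8, Psmd10 and Psmd13 higher, Psmd11 lower), against 30.6% of all genes tested.

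Of the 6 ATPases, Psmc4 was the only one to pass, where 33.2% of all genes tested did. Psmc4 had 113, 114, 121 and 123 CPM in serine/glycine-free libraries, against 109.8, 110.2, 112 and 112 CPM in control libraries. The groups did not overlap, though they came within a few CPM of each other. The log2 change was 0.083 (SE 0.0323, adjusted p = 0.0427), and 6 of 8 fits that left out 1 library lost the call: those without serine/glycine-free replicate 3 or 4, or without any 1 control library (adjusted p up to 0.142). The other ATPases, Psmc1, Psmc2, Psmc3, Psmc5 and Psmc6, had log2 changes from 0.013 (Psmc1) to 0.054 (Psmc2), and none passed.

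Psmd8, a subunit of the lid of the particle, showed the smallest adjusted p of the 35 genes. It had 252, 253, 259 and 269 CPM in serine/glycine-free libraries, against 225, 224, 219 and 232 CPM in control libraries. All 4 serine/glycine-free libraries lay above all 4 control libraries. The log2 change was 0.20 (SE 0.0277, adjusted p = 1.52e-07), from means of 258 ± 7.95 CPM in serine/glycine-free libraries and 225 ± 5.29 CPM in control libraries (SD, n = 4 each). The gene lies at chr7:29174187-29180673 in GRCm38.p6.

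Psmd11, a lid subunit that contacts the core, was the only proteasome gene to pass as lower in this fit. It had 89.9, 87.8, 89.7 and 91.5 CPM in serine/glycine-free libraries, against 96.2, 95.5, 97.1 and 92.0 CPM in control libraries. The groups did not overlap, with serine/glycine-free replicate 4 close to control replicate 4. Its log2 change was -0.086 (SE 0.0330, adjusted p = 0.0401). The call was lost in 6 of 8 fits, without serine/glycine-free replicate 1, 2 or 3 or control replicate 1, 2 or 3 (adjusted p up to 0.107), and it held with the length trend removed (adjusted p = 0.00578).

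The other 9 subunits outside the ATPase ring did not pass. The scaffold subunits Psmd1 and Psmd2 had log2 changes of 0.029 and 0.050. The ubiquitin receptor Psmd4 was at 0.026 and the deubiquitinase Psmd14 at -0.0070 (95% interval -0.075 to 0.061). The lid subunits Psmd3, Psmd6, Psmd7, Psmd12 and Psmd13 lay between -0.043 (Psmd3) and 0.055 (Psmd13). The exons of Psmd13 share 10.1% of their bases with Sirt3 on the opposite strand.

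The 3 assembly chaperones all had positive log2 changes, against 52.1% of all genes tested. Of the 3, 2 passed as higher, against 15.9% of all genes tested. Psmd10, also called gankyrin, had 34.2, 33.3, 38.7 and 35.0 CPM in serine/glycine-free libraries, against 28.1, 29.5, 28.1 and 31.7 CPM in control libraries. Its groups did not overlap, and serine/glycine-free replicate 3 was highest. The log2 change of 0.27 (SE 0.0522, adjusted p = 6.37e-05) was the largest of the regulatory genes. The gene lies at chrX:140948425-140956711 in GRCm38.p6.

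Psmd9 had 31.6, 27.8, 29.9 and 32.5 CPM in serine/glycine-free libraries, against 28.8, 27.1, 27.7 and 27.1 CPM in control libraries. The groups overlapped, since serine/glycine-free replicate 2 lay below control replicate 1. The log2 change was 0.14 (SE 0.0524, adjusted p = 0.0386), and 6 of 8 fits lost it, those that left out serine/glycine-free replicate 1, 3 or 4 or control replicate 2, 3 or 4 (adjusted p up to 0.133). The lincRNA gene Gm26745, on the opposite strand, covers 25.5% of the exonic bases of Psmd9. Whether counting used strand is not given in the sources used here, so reads of this pair in the shared bases cannot be told apart. Psmd5 had serine/glycine-free libraries at 57.1 to 60.4 CPM and control libraries at 53.1 to 56.4 CPM, which did not overlap, but did not pass (0.081, 95% interval 0.0019 to 0.16, adjusted p = 0.109).

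Summed over the regulatory genes, counts came to 2442 ± 50.6 CPM in serine/glycine-free libraries and 2355 ± 21.6 CPM in control libraries (SD, n = 4 each), and the groups did not overlap. Summed over the core genes they came to 1645 ± 51.4 CPM in serine/glycine-free libraries and 1615 ± 36.5 CPM in control libraries, and the groups overlapped. On the TPM scale the regulatory sums were 2717 ± 8.004 in serine/glycine-free libraries and 2675 ± 18.3 in control libraries, without overlap, and the core sums were 3410.5 ± 38.9 in serine/glycine-free libraries and 3430.1 ± 49.2 in control libraries, with overlap. The ratio of core to regulatory CPM was 0.673 ± 0.00856 in serine/glycine-free libraries and 0.686 ± 0.00949 in control libraries, and the groups overlapped. The regulatory sums differed by 86.4 CPM and 42.3 TPM. Psmd8 alone had 258 CPM and 336 TPM in serine/glycine-free libraries, against 225 CPM and 299.6 TPM in control libraries. Psmd8 thus made up part of each difference. A sum alone does not show how many genes share a change. Of the 20 regulatory genes, 17 had a positive log2 change, and 13 with the linear length trend removed. The sums and ratios are given as a description, with no test.

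Transcript length is related to the change in this comparison. Over all 11700 genes, log2 change was lower in longer genes, with a Spearman correlation across genes of -0.25 and a Pearson correlation of -0.17; genes are not independent replicates, and no p is given. The decile of shortest genes had a median log2 change of 0.086 and that of the longest -0.075. The core genes are short, with a median effective length of 850 bases, the regulatory genes had a median of 1435 bases, and all genes tested 2716 bases. The trend differed between libraries. Slopes per doubling of length were taken on each library's log2 CPM minus the gene's mean over all libraries. These slopes were -0.0071, 0.0015, -0.022 and -0.053 in the serine/glycine-free libraries and 0.0028, 0.015, 0.039 and 0.023 in the control libraries. Serine/glycine-free replicate 4 was thus steepest relative to that mean. The part of these slopes in the results was not tested apart from the fits described next.

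**Figure D4:**
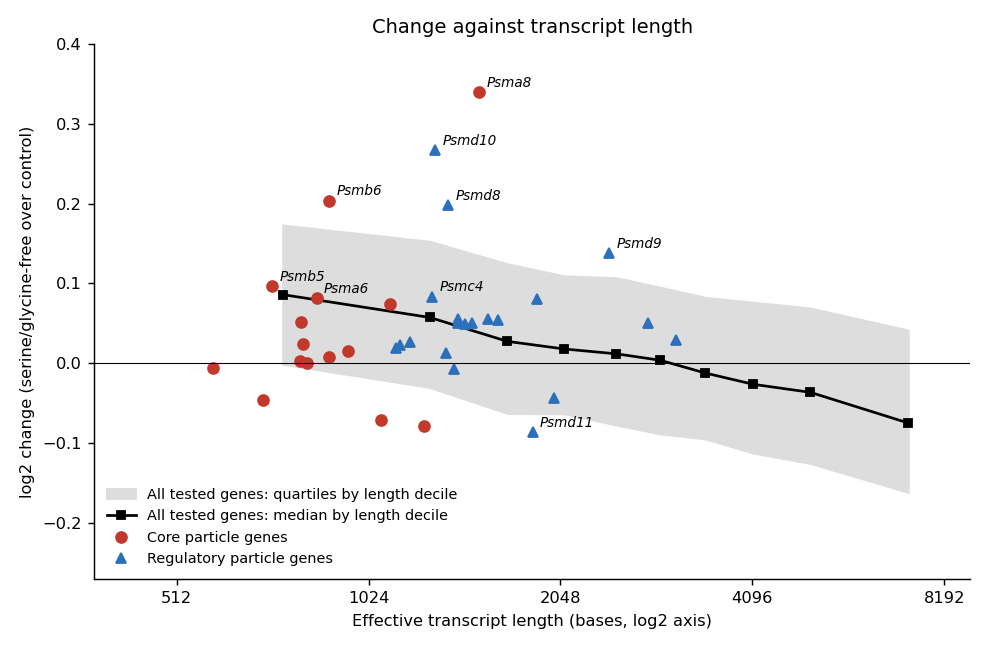
Log2 change (serine/glycine-free over control) against effective transcript length (bases, log2 axis) for the core genes (red circles) and regulatory genes (blue triangles), with the median (black line) and quartiles (grey band) of all tested genes by length decile. The median falls with length, and Psma8, Psmd10, Psmb6, Psmd8 and Psmd9 lie above the grey band.

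Within the particles the relation was weak. Across the 15 core genes the Spearman correlation of log2 change with length was 0.16 and the Pearson correlation 0.38, and without Psma8 (14 genes) they were -0.033 and -0.15. Across the 20 regulatory genes they were 0.027 and -0.11. Set beside genes of the same length decile, 4 of 15 core genes and 10 of 20 regulatory genes lay above the median of their decile.

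Removing the trend with length from each library altered the core calls in both directions. The number higher became 2 (Psmb6, log2 change 0.14, adjusted p = 0.000310, and Psma8, 0.31, adjusted p = 0.0382), and the number lower became 4, against 15.9% of all genes higher and 16.6% lower in that fit. The 4 were Psma3 (-0.12, adjusted p = 0.000558), Psma5 (-0.12, adjusted p = 0.00192), Psmb2 (-0.12, adjusted p = 0.000538) and Psmb3 (-0.091, adjusted p = 0.0209). Psma6 and Psmb5 no longer passed (adjusted p = 0.664 and 0.630). Among regulatory genes, Psmc4 no longer passed (adjusted p = 0.280), while Psmd8 (0.16), Psmd9 (0.13) and Psmd10 (0.23) stayed higher and Psmd11 (-0.10) lower. When serine/glycine-free replicate 4 was also left out, an alternative chosen after seeing the data, Psma8 (adjusted p = 0.0604) and Psmd9 (adjusted p = 0.136) did not pass, and the same 4 core genes were lower.

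The immunoproteasome subunits, outside the genes described above, replace the constitutive catalytic subunits in immune cells. Psmb9, the partner of Psmb6, had 33.4, 35.0, 30.4 and 31.5 CPM in serine/glycine-free libraries, against 35.1, 38.8, 35.4 and 34.8 CPM in control libraries. Its groups overlapped at the highest serine/glycine-free library. Psmb9 (-0.14, adjusted p = 0.0236) and Psmb10 (-0.13, adjusted p = 0.0320), the partner of Psmb7, were lower, and Psmb8, the partner of Psmb5, did not pass (-0.054, adjusted p = 0.178). After correction for length Psmb8 also passed as lower (-0.10, adjusted p = 0.00177), so that all 3 were lower in that fit, where 16.6% of all genes were. Psmb9 was lost without serine/glycine-free replicate 3 or 4 or control replicate 2, and Psmb10 without serine/glycine-free replicate 1 or 3 or control replicate 2 or 4. The ratio of Psmb6 to Psmb9 TPM was 2.41, 2.20, 2.74 and 2.90 in serine/glycine-free libraries and 2.08, 1.85, 2.08 and 2.01 in control libraries, without overlap. The ratio of Psmb5 to Psmb8 TPM was 1.06 ± 0.0307 in serine/glycine-free libraries and 0.954 ± 0.0274 in control libraries (SD, n = 4 each), also without overlap, and that of Psmb7 to Psmb10 was 1.92 ± 0.190 in serine/glycine-free libraries and 1.75 ± 0.0551 in control libraries, with overlap.

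The other lists of the ubiquitin-proteasome system held 35 genes together with the immunoproteasome, of which 2 were higher and 10 lower, a share close to the 33.2% of all genes tested (15.9% higher, 17.3% lower). Of 5 activators and inhibitors of the core, 3 were lower, where 17.3% of all genes tested were. Psme2, a subunit of the interferon-inducible activator, was at -0.15 (adjusted p = 4.34e-05; its counts were not whole numbers in any of the 8 libraries, which arises when an estimate splits reads between genes), and Psme3, its nuclear relative, at -0.087 (adjusted p = 0.0109). Psme4 was at -0.079 (adjusted p = 0.0430), and it did not pass in 5 of 8 fits that left out 1 library, nor after correction for length (adjusted p = 0.500). In that same fit Psme1, the partner of Psme2, passed as lower (-0.12, adjusted p = 0.000764); without the correction it was at -0.052 and did not pass.

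The 5 chaperones of the core particle included 0 that passed in either direction (1 at an unadjusted p under 0.05, 0 in DESeq2 and 0 in limma-voom). Over all genes tested 33.2% passed in edgeR, and counts from lists as short as those in this paragraph say little beside that share. Psmg2 was at 0.16 (95% interval 0.0046 to 0.31), Pomp at 0.029 and Psmg4 at 0.029. Neither of the 2 further regulatory subunits passed, with Adrm1, a ubiquitin receptor, at 0.078 (adjusted p = 0.0690) and Sem1 at 0.047; 1 had an unadjusted p under 0.05, and 0 passed in DESeq2 or limma-voom.

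Of 8 regulators of proteasome transcription, 2 were higher and 2 lower, beside 15.9% of all genes tested higher and 17.3% lower. Nfe2l2, the stress-responsive factor, had 425, 419, 425 and 408 CPM in serine/glycine-free libraries, against 383, 376, 385 and 397 CPM in control libraries. The groups did not overlap, and its log2 change was 0.12 (SE 0.0252, adjusted p = 0.000147). Maff, a small Maf partner, was higher at a low level (3.95 ± 0.240 CPM in serine/glycine-free libraries and 2.90 ± 0.308 CPM in control libraries (SD, n = 4 each); log2 change 0.44, adjusted p = 0.00814). Both held whichever library was left out. Nfe2l1, the factor that induces proteasome genes when proteasome activity falls, had 294, 296, 297 and 303 CPM in serine/glycine-free libraries, against 318, 309, 308 and 315 CPM in control libraries. Every serine/glycine-free library lay below every control library. Its log2 change of -0.071 (SE 0.0253, adjusted p = 0.0272) was lost in 5 of 8 fits that left out 1 library, and correction for length also lost it (adjusted p = 0.145). Vcp, which extracts the Nfe2l1 protein from the membrane and is named here after its values were seen, was at -0.060 (adjusted p = 0.0409) and was lost in 6 of 8 such fits and after correction for length (adjusted p = 0.0741).

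**Figure D5:**
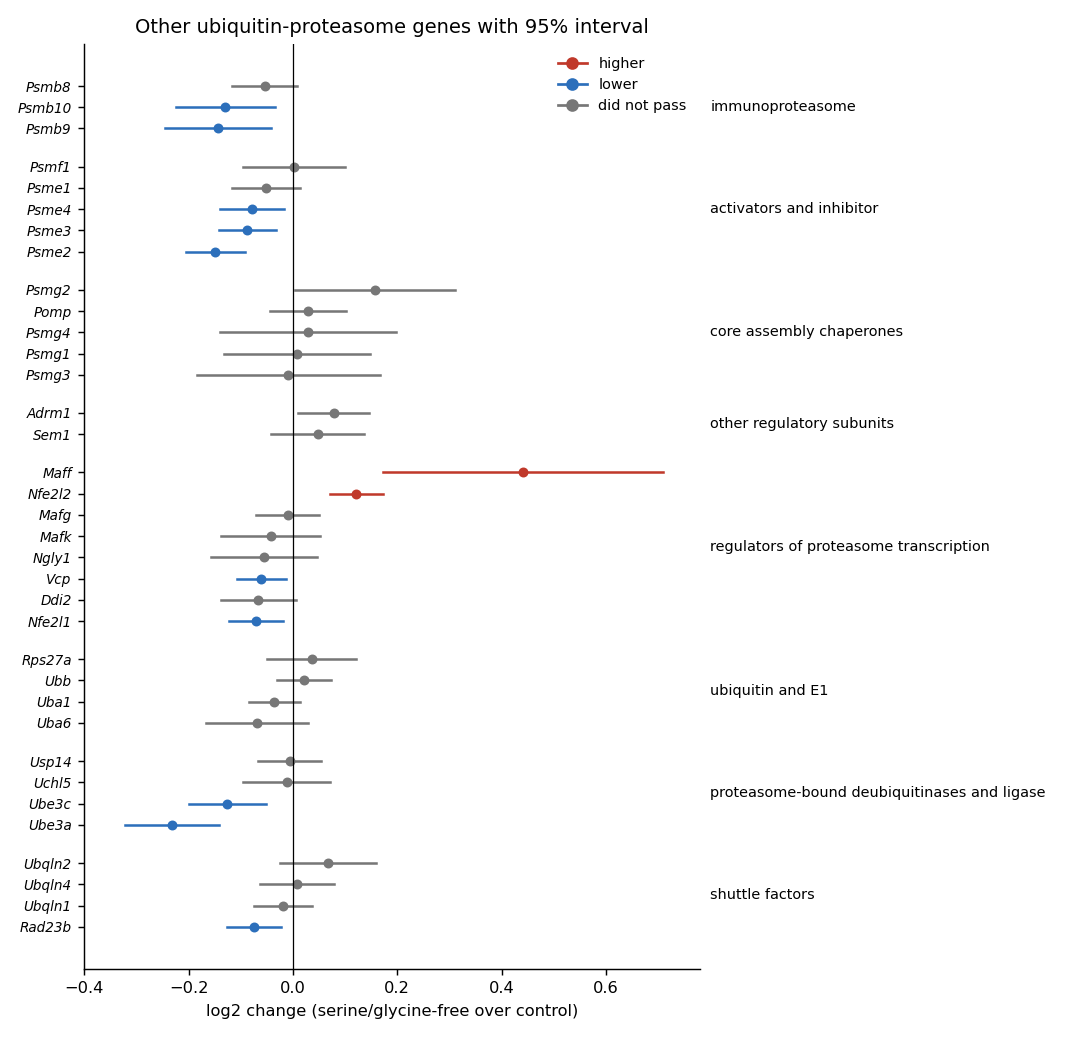
Log2 change (serine/glycine-free over control) with its 95% interval for 35 other genes of the ubiquitin-proteasome system, grouped by role; colours mark the direction of genes that passed an adjusted p of 0.05. Maff (0.44) and Nfe2l2 (0.12) lie to the right and Ube3a (-0.23) farthest to the left.

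Of 4 ubiquitin and E1 genes, 0 passed in edgeR, 0 had an unadjusted p under 0.05, and 0 passed in DESeq2 or limma-voom. Over all genes tested 15.9% were higher and 17.3% lower in edgeR. Counts from lists as short as those in this paragraph say little beside these shares. The E1 enzymes Uba1 and Uba6 were at -0.035 and -0.069, and the ubiquitin fusion gene Rps27a at 0.036. Of 4 deubiquitinases and ligases that bind the proteasome, the ligases Ube3a (-0.23, adjusted p = 9.07e-05) and Ube3c (-0.13, adjusted p = 0.00606) were lower, and the deubiquitinase Uchl5 was at -0.012. Of 5 shuttle factors, which carry ubiquitinated proteins to the proteasome, Rad23b was lower (-0.074, adjusted p = 0.0223), and Ddi2 (-0.066) and Ubqln2 (0.067) did not pass. Rad23b was lost without serine/glycine-free replicate 1 or 3 or control replicate 3, and after correction for length (adjusted p = 0.0779).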

How the data were processed

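Read processing was the authors'. The submitters' processing notes name BWA, Bowtie2 and RSEM and the build GRCm38.p6; the sources used here give no versions, roles or use of strand. The table as deposited gives, per gene and library, estimated counts, FPKM and TPM as made by the authors; its columns of group averages were not used. Estimated counts were rounded to whole numbers, filtered (edgeR filterByExpr, minimum count 10, minimum total 15) and scaled by TMM, leaving 11700 genes. Both groups, 4 libraries each, entered edgeR 4.0.16 (R 4.3.3) quasi-likelihood fits with 6 residual degrees of freedom and a common coefficient of variation of 2.78%; p-values were adjusted over all genes tested (Benjamini-Hochberg, threshold 0.05). CPM are TMM-scaled and log2 CPM used a prior count of 2. Effective length came from the ratio of the deposited estimated counts to FPKM, and TPM, as deposited, served to compare levels between genes. Promoters are RefSeq's, gene positions GENCODE's, both on GRCm38.p6.

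Alternatives were other scalings (DESeq2's size factors in edgeR, library size alone), other filters, removal of a trend with length or level from each library, a replicate block, DESeq2 1.42.0, limma-voom (limma 3.58.1), an adjusted p of 0.01, and each library left out in turn. The fit was tested on simulated data. The genes, the lists and the rules for naming genes were chosen with earlier results of these data known. Every proteasome gene is named; in each particle up to 4 genes higher and 4 lower with the smallest adjusted p, and the catalytic subunits, have every library's value; of each other list up to 3 genes with the smallest adjusted p are named. Counts limit the precision of each value, and the limit that a count of 0 allows covers counting error only. Some genes of the ubiquitin-proteasome system are not reported here.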

Additional observations from a re-analysis of the deposited data

Results flagged for a closer look

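In 5 of 74 groups of 4 libraries (each proteasome gene and each particle's sum, in each medium), 1 library stood apart: its gap to the nearest other library, as a share of the group's range, exceeded Dixon's critical value for 4 samples. Chance flags about 1 in 20 groups. In serine/glycine-free BMDMs these were Psma1 (0.914, replicate 3 high at 132 CPM), Psmb1 (0.842, replicate 2 low at 120.1 CPM), Psmb5 (0.903, replicate 4 high at 98.9 CPM) and Psmd5 (0.849, replicate 3 high at 60.4 CPM). In control BMDMs it was Psmd14 (0.853, replicate 3 high at 94.7 CPM). Of these genes only Psmb5 passed the test between media, and its call was lost without replicate 4 of the serine/glycine-free libraries (adjusted p = 0.197, edgeR's quasi-likelihood test).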

How the results depend on the processing

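Psmb6, Psmd8 and Psmd10 passed in every setting run. With RLE size factors and with limma-voom the counts of called genes stayed at 4 core higher, 0 core lower, 4 regulatory higher and 1 regulatory lower; with a minimum mean of 5 CPM, which left Psma8 untested, 3 core genes were higher and the other counts were the same. Over the settings 22.4% to 36.4% of all genes tested were called.

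With library size alone 5 core genes were higher, with Psma1 added, and 0 regulatory genes were lower. Without a filter on low counts 2 core genes were higher and 1 lower (Psma3), and 2 regulatory genes were higher. DESeq2 and an adjusted p of 0.01 each gave 1 core gene higher, 2 regulatory genes higher and 0 lower. With either length trend removed 2 core genes were higher and 4 lower, with medians of -0.043 (linear) and -0.045 (smooth) for the core and 0.020 and 0.016 for the regulatory genes; without serine/glycine-free replicate 4 as well, which was chosen after seeing the data, these were 1, 4, -0.040 and 0.022, with 2 regulatory genes higher. With the level trend removed 5 core genes were higher (Psma1 and Psmb4 added, Psma8 lost), 14 regulatory genes were higher and 0 lower, and the medians were 0.065 (core) and 0.10 (regulatory).

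The replicate numbers did not pair the libraries (correlations of same-numbered libraries' deviations were -0.048, 0.061, 0.051 and -0.094). With the replicate block 2 core genes were higher and 0 regulatory genes lower; with the block and the linear length trend removed, 2 core genes were higher and 4 lower, with medians of -0.043 and 0.020.

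Leaving out 1 library gave 2 to 4 core genes higher, 0 to 1 lower, 2 to 4 regulatory genes higher and 0 to 1 lower.

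Signs turned only for genes that passed neither in the reported fit nor in the setting concerned. Psmb7 was -0.0018 with RLE size factors, -0.0018 in DESeq2 and -0.00021 in limma-voom. With library size alone Psmb3 was 0.0033 and Psmd14 0.0019. Without a filter Psma2 was -0.0056, Psmb1 -0.00045 and Psmb7 -0.0083. With the level trend removed Psmb2 was 0.0069, Psmb3 0.043, Psmd3 0.0071 and Psmd14 0.041. With the length trend removed (linear, smooth, linear with the block, and linear without serine/glycine-free replicate 4), Psma2 was -0.064, -0.067, -0.065 and -0.037, Psma4 was -0.043, -0.045, -0.042 and -0.040, Psma7 was -0.042, -0.045, -0.043 and -0.041, Psmb1 was -0.053, -0.055, -0.052 and -0.040, Psmb4 was -0.016, -0.018, -0.016 and -0.039. In the same order, Psmb7 was -0.066, -0.068, -0.066 and -0.055, Psmc1 was -0.024, -0.029, -0.024 and -0.025, Psmc5 was -0.028, -0.034, -0.029 and -0.026, Psmd4 was -0.018, -0.024, -0.018 and -0.038, Psmd6 was -0.023, -0.029, -0.023 and -0.023; Psmd7 was -0.0075 in the last of these only. With 1 library left out the ranges of the genes that changed sign were Psma2 -0.012 to 0.026, Psma4 -0.022 to 0.043, Psmb1 -0.019 to 0.038, Psmb3 -0.033 to 0.015, Psmb7 -0.020 to 0.017, Psmd4 -0.0062 to 0.044, Psmd14 -0.017 to 0.013.

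The cause of these shifts was not tested. Depth limits Psma8, at about 5 CPM, and Psmb11, with 0 or 1 count, more than the other genes. With 4 libraries a group and a median SE of 0.034 on the log2 scale, differences of a few percent are near the limit of what the fit resolves.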
